A study of Mus musculus with 6 samples.

Results

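The 8 interferon regulatory factor genes Irf1, Irf2, Irf3, Irf4, Irf5, Irf7, Irf8 and Irf9 were followed in N18-Fms mouse prostate cancer cells before and after stimulation with CSF-1. They were picked by gene name, as the 8 of 36028 genes with a usable probe whose name in the array files was one of these. The names were listed with earlier results of these data known. They were represented by 9 probes, Irf1 by a pair and each other gene by 1. N18-Fms cells descend from TRAMP C2H, a clonal epithelial line from a prostate tumor of a transgenic mouse, through 1 luciferase-expressing, neomycin-resistant clone, N18, that was transduced with a retrovirus carrying wild-type murine c-fms, the gene of the CSF-1 receptor (CSF-1R, CD115), and sorted for surface CD115. The 3 groups were untreated cells (Control) and cells given recombinant mouse CSF-1 at 100 ng/mL for 24 h (24H CSF1) or 48 h (48H CSF1), with 2 arrays each, and every group carried the transduced receptor. The study's methods give shorter times than the labels, whose times are used here, and describe the RNA as that of independent experiments. Cells without the receptor were not analysed here, and the results rest on 1 clone.

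Interferon regulatory factors are transcription factors that share an N-terminal DNA-binding domain and bind repeats of the letters GAAA in the promoters of interferon genes and interferon-stimulated genes. Irf9 is the DNA-binding part of ISGF3, the complex through which type I interferons act; Irf3, Irf5 and Irf7 are activated by kinases downstream of sensors of viral nucleic acid; Irf1 and Irf2 compete for the same sites as activator and repressor. Irf4 and Irf8 are factors of lymphocytes and of macrophages and dendritic cells, the lineage in which CSF-1R is normally expressed.

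On each array, 59305 spots were read, of which between 58.7% and 72.0% were well above background, and 0 were saturated. Array 1 of the 24H CSF1 group lay on another slide, scanned separately, than the other 5. Levels are given as the log2 of the deposited signal minus the array's 75th percentile, so that 0 is the level of the 75th percentile and 1 unit is a 2-fold difference. Levels of different probes cannot be set against each other. Replicate arrays differed with an SD between 0.37 and 0.40 on this scale over the 24643 genes tested, those that the scanner software marked well above background on every array of 1 or more groups. Csf1r differed from Control by 0.22 at 24 h (limma adjusted p = 0.367) and by -0.07 at 48 h (limma adjusted p = 0.793), and its ligand Csf1, by the brightest of its 3 probes, by -0.36 and -0.70 (limma adjusted p = 0.476 and 0.184). With each probe tested on its own, the other Csf1 probes differed from Control by -0.997 and -0.943 at 24 h (limma adjusted p = 0.0706 and 0.0973) and were lower at 48 h, by -1.35 and -1.33 (limma adjusted p = 0.0369 and 0.0463). Of the epithelial markers, Epcam, Cdh1 and Krt18 were not well above background on either Control array, whereas the keratins Krt8, Krt5 and Krt14 were on both. Of 8 tested macrophage markers, Mertk was called higher at 24 h (1.27) and Mertk and Mpeg1 at 48 h (1.34 and 3.12), and none lower, with medians of 0.63 and 0.16. Their summed level, as multiples of the 75th percentile over all 14, was between 40.6 and 45.2 in Control, 31.5 and 39.1 at 24 h and 28.3 and 36.9 at 48 h, but 1 probe, that of Itgam, which was not called, made up between 74.5% and 93.4% of it, and Lyz2 was above background on 0 arrays. Of 8 tested fibroblast and endothelial markers, 3 were called higher and 2 lower at 24 h, and 2 higher and 2 lower at 48 h. Their sums of 214 to 226, 90.0 to 101 and 89.8 to 124 were mostly the Col1a2 signal (74.8% to 89.4%). Col1a2 was lower (-1.44 and -1.23) and Cdh5 higher (3.87 and 3.97). Fibroblast markers went both ways. Dcn was at -3.27 and -2.50 in Control, -0.96 and -0.65 at 24 h, and -0.34 and 0.12 at 48 h. Pdgfra was at -3.30 and -2.73 in Control, -1.75 and -1.61 at 24 h, and -2.43 and -2.35 at 48 h. Pdgfrb was at 1.25 and 1.83 in Control, -0.49 and -0.25 at 24 h, and 0.36 and 0.46 at 48 h. None of 6 tested lymphocyte and plasmacytoid dendritic cell markers was called, with sums, mostly of Siglech, of 78.0 to 92.1, 67.0 to 73.0 and 64.2 to 71.5. Of 7 tested epithelial markers, with sums of 1.97 to 2.34, 2.11 and 2.77 to 2.82, Krt8 was called higher at 48 h (1.98). The part of these markers in the results below was not tested. Fewer cells with a transcript and less RNA of it per cell cannot be told apart in such bulk RNA.

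CSF-1-stimulated cells had higher Irf7, Irf9 and Irf1 than untreated cells at both times. Of the 6 members that could be tested, these 3 were called at 24 h, against 4.55% of all 24643 genes called higher, and the same 3 at 48 h, against 3.95%. A call required an adjusted p under 0.05 together with a 2-fold change (limma, 2-sided, Benjamini-Hochberg over all genes tested), and no member was called lower, against 1.62% and 1.45% of all genes. Irf3, Irf2 and Irf5 were measured on every array and not called. Irf4 and Irf8 were not tested, since in no group did both arrays show their probes well above background. Both comparisons share the same Control arrays and are therefore not independent. An exact permutation test of 2 arrays against 2 cannot go below p = 0.333. The calls therefore rest on limma's model of the spread, which is pooled over all groups and partly shared across genes.

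**Figure D1:**
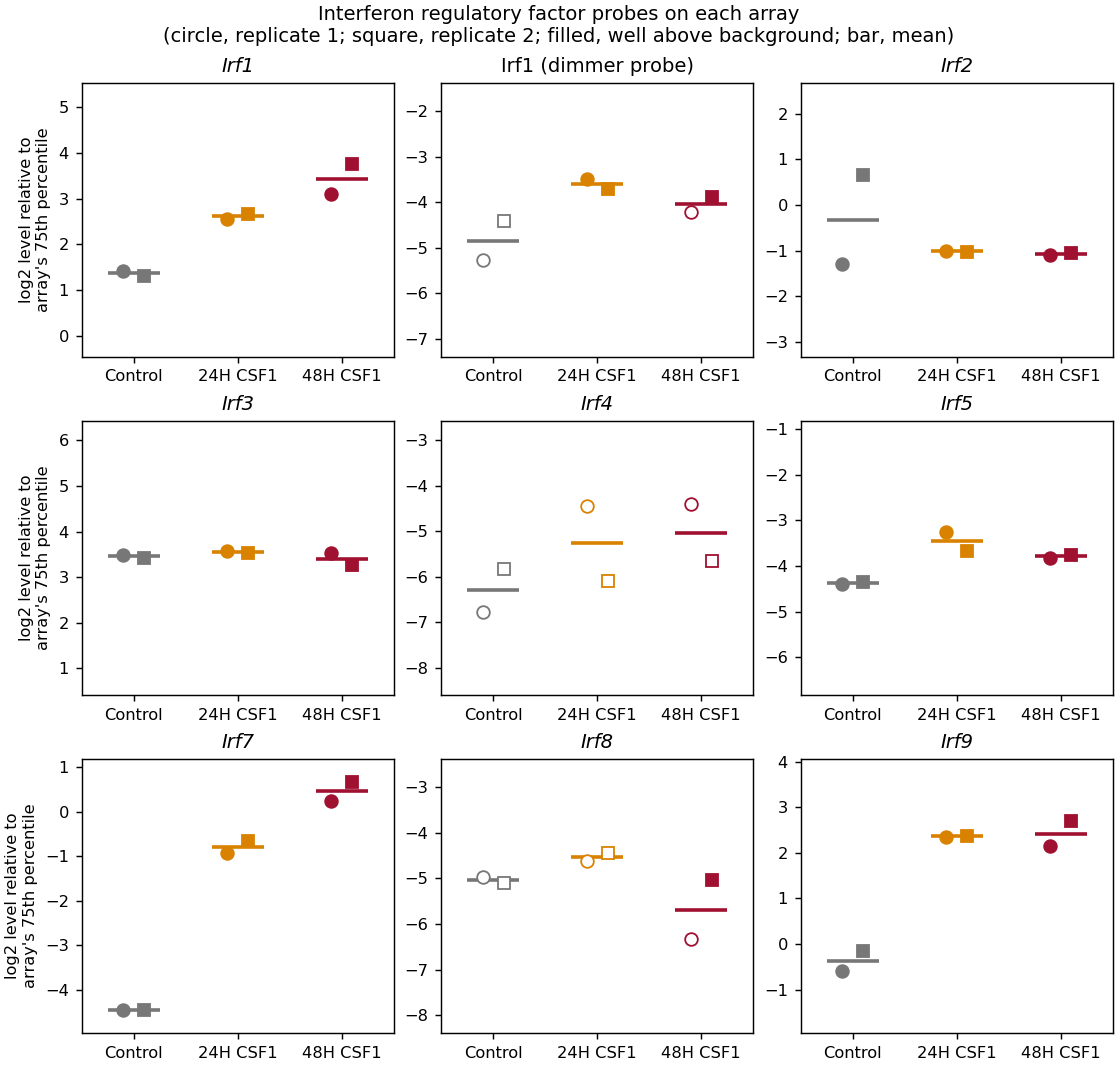
Level of each of the 9 probes of the 8 interferon regulatory factor genes on the 6 arrays, as log2 signal relative to the array's 75th percentile, with circles for replicate 1, squares for replicate 2, filled symbols for spots well above background and bars for group means. Irf1 by either probe, Irf5, Irf7 and Irf9 lie higher on all 4 stimulated arrays than on both Control arrays. How many of all genes do so is not given here. Irf3 lies between 3.28 and 3.57 on every array, and 1 Control array stands apart for Irf2.

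The letters upstream of the 3 called members are shown first, because these genes were called higher at both times. Each line holds the 250 bases before an annotated start of the gene, 5′ to 3′ on the gene's strand, from RefSeq on GRCm38.p6. Irf1 and Irf9 have 2 annotated starts each, of which the first listed is used. Capitals mark a match to the gamma-activated site (GAS), TTCNNNGAA, the letters bound by Stat dimers.
Irf1 chr11:53769764-53770013 (plus strand): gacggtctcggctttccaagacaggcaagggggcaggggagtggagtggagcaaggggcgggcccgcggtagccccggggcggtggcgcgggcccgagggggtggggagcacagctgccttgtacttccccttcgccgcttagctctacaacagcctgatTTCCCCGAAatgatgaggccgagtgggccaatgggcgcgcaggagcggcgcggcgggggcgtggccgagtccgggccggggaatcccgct
Irf7 chr7:141266425-141266674 (minus strand): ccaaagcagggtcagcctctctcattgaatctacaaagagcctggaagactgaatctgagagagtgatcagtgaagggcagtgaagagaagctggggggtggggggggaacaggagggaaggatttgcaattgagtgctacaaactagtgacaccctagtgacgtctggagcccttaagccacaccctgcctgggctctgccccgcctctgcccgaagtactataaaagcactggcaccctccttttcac
Irf9 chr14:55603735-55603984 (plus strand): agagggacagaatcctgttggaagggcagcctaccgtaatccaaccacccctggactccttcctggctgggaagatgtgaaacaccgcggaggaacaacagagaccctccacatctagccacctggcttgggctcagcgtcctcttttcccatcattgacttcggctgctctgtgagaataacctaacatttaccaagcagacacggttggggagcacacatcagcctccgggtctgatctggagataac

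All 8 members matched the RefSeq promoter table, with 11 windows of 250 bases before to 50 after a start. The other motif searched was the core of the interferon-stimulated response element (ISRE), GAAANNGAAA, on both strands (TTTCNNTTTC on the other); GAS reads the same on both strands, and a GAAA repeat can overlap a GAS. The ISRE core occurred in 3.44% of the 32851 windows of all genes and a GAS in 8.30%. Of the called members, Irf1 held a GAS from 90 to 82 bases before the first of its 2 starts and none in its other window. No match to either motif was found in the windows of Irf7 and Irf9. Irf2 held 1 ISRE core (241 to 232 bases before the start) and 1 GAS (224 to 216 before). Irf8 held 2 GAS matches, 171 to 163 and 153 to 145 bases before the first of its 2 starts, and none in its other window. These stretches of 60 bases are shown in the same way, with both kinds of match in capitals.
Irf2 chr8:46739495-46739554 (plus strand): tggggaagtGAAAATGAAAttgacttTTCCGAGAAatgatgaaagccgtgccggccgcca
Irf8 chr8:120736168-120736227 (plus strand): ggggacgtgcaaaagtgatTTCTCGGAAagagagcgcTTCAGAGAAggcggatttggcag

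The windows of Irf3, Irf4 and Irf5 held no match. Among members, a match was found in Irf1, which was called, in Irf2, which was tested and not called, and in Irf8, which was too dim to be tested. Whether a match went with a change was not tested. Of the 14 ISGF3 target genes with a window, 8 held an ISRE core (57.1%), as did 4 of the 11 Irf1 target genes (36.4%), against 3.99% of 27025 genes with any window. The share was 33.3% for the cofactors and negative regulators (3 of 9) and for the Irf4 and Irf8 target genes (2 of 6). It lay between 11.1% and 15.0% for the lists of receptors, sensors and DNA-binding partners. The core was also found in 10 of 18 interferon ligand genes (55.6%), not all of which could be tested. None of those tested was called. A match describes letters in these windows and not binding.

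Irf7, the factor that amplifies type I interferon production and whose own gene is interferon-inducible, was higher than in Control on every stimulated array. Its probe is shown because it carries that change, which at 24 h was above that of Irf9 as reported and below it with normexp correction (2.12 against 2.57 with the 75th percentile shift, and 2.02 against 2.61 with quantile normalization). The probe's annotation on mm9 covers 351 bases on the minus strand, chr7:148450664-148451014, for 60 probe bases, so that it crosses at least 1 exon junction.
Irf7 probe: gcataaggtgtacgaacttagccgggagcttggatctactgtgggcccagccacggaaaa

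The Irf7 level was -4.45 on both Control arrays, -0.92 and -0.65 at 24 h, and 0.25 and 0.67 at 48 h. All 6 values were well above background, the groups did not overlap, and every 48 h array lay above every 24 h array. The difference from Control was 3.67 ± 0.18 (log2, limma SE, n = 2 arrays per group; adjusted p = 0.00145 by limma) at 24 h, a 12.7-fold increase with a 95% interval from 3.21 to 4.13 on the log2 scale. At 48 h it was 4.91 ± 0.18 (limma adjusted p = 0.000928), a 30.1-fold increase. The Control signals were low, 25.1 and 27.9 scanner units, and the size of the change depended on how background was handled: with normexp correction and an offset of 50, it was 2.12 at 24 h and 3.21 at 48 h, still called (limma adjusted p = 7.69e-05 and 8.46e-06).

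Irf9, the DNA-binding subunit of ISGF3, was measured at -0.59 and -0.15 in Control, 2.35 and 2.37 at 24 h, and 2.15 and 2.69 at 48 h. All 4 stimulated arrays lay above both Control arrays, and the 24 h values fell inside the range of the 48 h values. The increase was 2.73 ± 0.24 (limma SE) at 24 h, or 6.62-fold (limma adjusted p = 0.00437), and 2.79 ± 0.24 at 48 h, or 6.90-fold (limma adjusted p = 0.00373). Without the 24 h array on the separate slide, the 24 h increase was 2.74 for Irf9 (limma adjusted p = 0.0274) and 3.80 for Irf7 (limma adjusted p = 0.0112), and all 5 remaining arrays were on 1 slide.

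Irf1, an activator of antigen presentation and interferon-stimulated genes, was at 1.42 and 1.31 in Control, 2.56 and 2.66 at 24 h, and 3.11 and 3.76 at 48 h by its brighter probe (mm9 chr11:53590746-53590805, plus strand). The 3 groups were in separate ranges. The increase was 1.25 ± 0.23 (limma SE) at 24 h, 2.38-fold (limma adjusted p = 0.0262), and 2.08 ± 0.23 at 48 h, 4.22-fold (limma adjusted p = 0.00737). The 24 h call was lost without either Control array (limma adjusted p = 0.0952 and 0.121) or either 24 h array (limma adjusted p = 0.0968 without array 1, on the separate slide, and 0.106 without array 2), and the 48 h call without Control array 2 (limma adjusted p = 0.0525).

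A dimmer Irf1 probe, annotated to another transcript variant and further downstream (mm9 chr11:53591817-53591876), gave -5.28 and -4.42 in Control, -3.50 and -3.70 at 24 h, and -4.21 and -3.89 at 48 h. It was well above background on 0 Control arrays, both 24 h arrays and 1 of the 48 h arrays. Since Control gave only a bound, the dimmer probe was at least 1.98-fold higher at 24 h. No such bound is given for 48 h, where 1 array was also not well above background. Neither difference passed correction with each probe tested on its own (limma adjusted p = 0.0577 and 0.158). Every stimulated value lay above both Control values. From 24 h to 48 h the dimmer probe differed by -0.45, with 1 of the 48 h arrays at background, and the brighter one by 0.83.

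**Figure D2:**
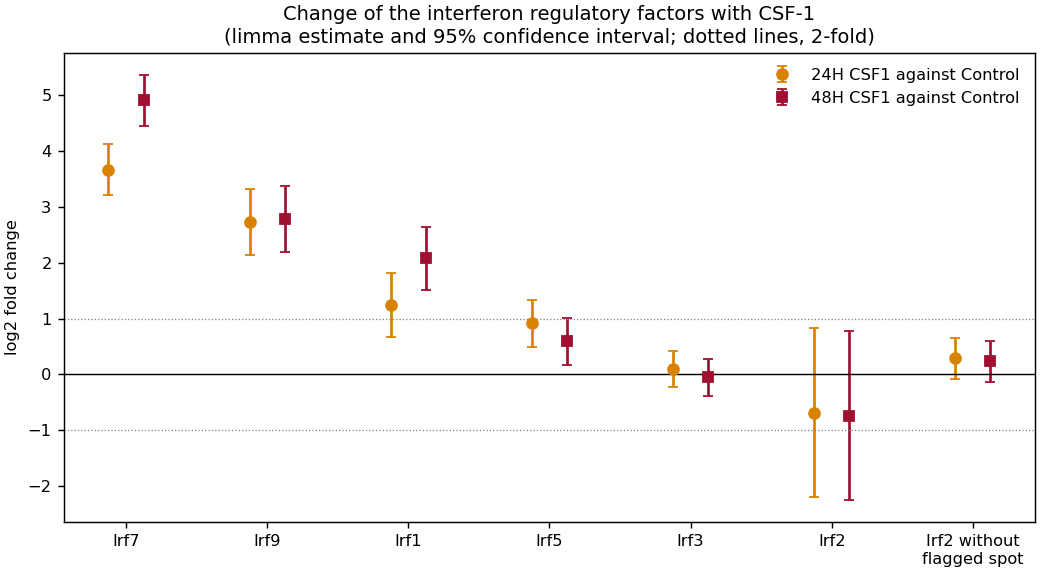
Fold change of the 6 tested interferon regulatory factors, as log2, with the limma estimate and its 95% confidence interval for 24 h (circles) and 48 h (squares) against Control, dotted lines at 2-fold, and Irf2 also without 1 spot with a flagged local background. Irf7 (3.67 and 4.91), Irf9 and Irf1 lie above 2-fold at both times, the Irf5 estimates lie between no change and 2-fold, and the wide Irf2 intervals narrow around small positive values once that spot is left out.

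Irf3, the constitutively made factor that starts the response to viral nucleic acid, was at 3.50 and 3.42 in Control, 3.57 and 3.54 at 24 h, and 3.53 and 3.28 at 48 h. The 48 h values spanned those of Control, and both 24 h values lay slightly above. The difference was 0.10 at 24 h, with a 95% interval from -0.23 to 0.42 (limma adjusted p = 0.675), and -0.05 at 48 h, with an interval from -0.38 to 0.27 (limma adjusted p = 0.827). These intervals leave out a 2-fold change in either direction.

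Irf5, an activator of inflammatory cytokine genes downstream of Toll-like receptors, was at -4.40 and -4.36 in Control, -3.24 and -3.68 at 24 h, and -3.82 and -3.76 at 48 h. Every stimulated array was above both Control arrays, all 6 values being well above background. The difference was 0.92 ± 0.17 (limma SE) at 24 h, or 1.89-fold, which passed the adjusted p (0.0266, limma) and not the fold threshold; it missed that p without either Control array (limma adjusted p = 0.106 and 0.110), without 24H CSF1 array 1 on the other slide (limma adjusted p = 0.0784) and without either 48 h array (limma adjusted p = 0.0511). At that p and any fold, 8.02% of all genes were higher. At 48 h it was 0.59, or 1.51-fold (limma adjusted p = 0.0773). The Control signals of 26.0 and 29.8 scanner units were low, and normexp correction with quantile normalization gave 0.22 and 0.14 (limma adjusted p = 0.198 and 0.412).

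Irf2, which represses sites that Irf1 activates, was at -1.31 and 0.65 in Control, -1.001 and -1.025 at 24 h, and -1.09 and -1.05 at 48 h. The 4 stimulated values lay within 0.09 of each other and between the Control values, of which array 2 stood 1.95 above array 1. The difference was -0.68, with a 95% interval from -2.20 to 0.83, at 24 h (limma adjusted p = 0.506) and -0.74, from -2.25 to 0.78, at 48 h (limma adjusted p = 0.469).

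The high Irf2 value came from a spot whose local background the scanner software had marked as an outlier, the only 1 of 54 member spots so marked. Its pixels had an SD of 408 scanner units, against 44.6 to 49.1 on the other 5 arrays, and its local background a median of 54, against 24 to 35. Without that spot, Irf2 was 0.29 above Control at 24 h (95% interval from -0.07 to 0.66, limma adjusted p = 0.244) and 0.24 above at 48 h (limma adjusted p = 0.325), with 1 Control value left. Without Control array 1 instead, the difference was -1.66 at 24 h (limma adjusted p = 0.0188) and -1.71 at 48 h (limma adjusted p = 0.0174). The sign of the Irf2 difference thus turned on which Control array was kept.

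**Figure D3:**
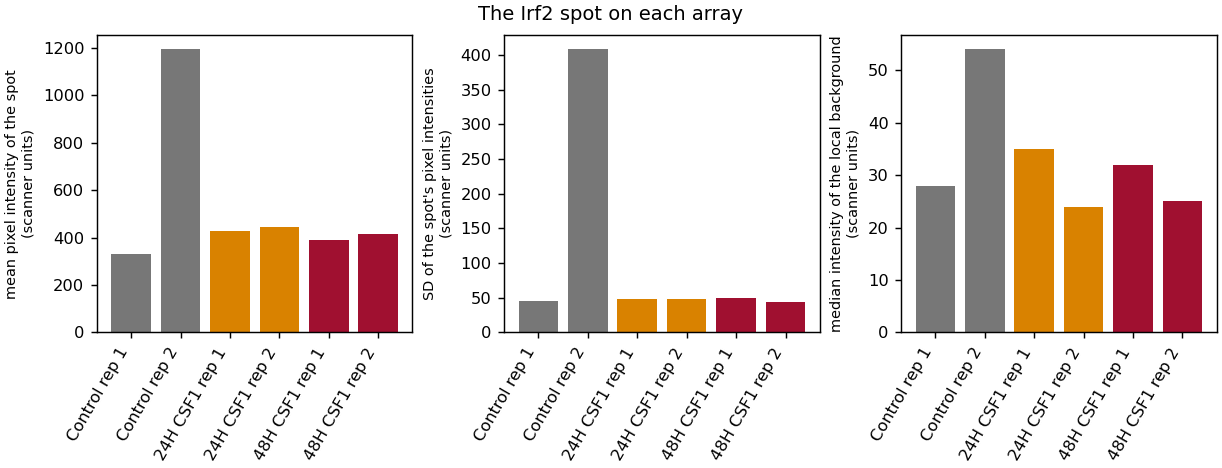
The Irf2 spot on each of the 6 arrays, as mean pixel intensity, SD of the pixel intensities and median intensity of the local background, all in scanner units. Control replicate 2 is highest in all 3 panels, with a pixel SD of 408 against 44.6 to 49.1 on the other arrays.

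Irf4, a factor of B cell and plasma cell differentiation, was read at -6.77 and -5.82 in Control, -4.45 and -6.09 at 24 h, and -4.41 and -5.66 at 48 h. It was well above background on 0 of 6 arrays. Irf8, a factor of monocyte and dendritic cell development, was read at -4.97 and -5.10 in Control, -4.62 and -4.44 at 24 h, and -6.34 and -5.03 at 48 h. Its spot was well above background on 1 array, 48H CSF1 array 2. Neither gene therefore has a level beyond background in any group. With the filter on dim probes left out, Irf4 differed from Control by 1.03 and 1.26 (limma adjusted p = 0.473 and 0.454) and Irf8 by 0.51 and -0.65 (limma adjusted p = 0.530 and 0.521), with no call.

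Between the stimulated groups, tested directly, Irf7 was 1.24 higher at 48 h than at 24 h (95% interval from 0.78 to 1.70), a 2.37-fold difference that did not pass correction (limma adjusted p = 0.121). Irf1 was 0.83 higher, or 1.77-fold (limma adjusted p = 0.235). Irf9 differed by 0.06, with an interval from -0.53 to 0.65 (limma adjusted p = 0.931). At 48 h against 24 h, 0 of the 6 members were called, as were 0% of all genes, in limma; Irf7 and Irf1, 2 of the 6, and 13.6% of all genes had an unadjusted p under 0.05. Irf3, Irf5 and Irf2 differed by -0.15, -0.33 and -0.05 (limma adjusted p = 0.653, 0.461 and 0.978). Irf7 was called under 5 alternatives, some of which used an unadjusted p. Among them were normexp correction with the 75th percentile shift (1.09, limma adjusted p = 0.0215) and an intensity trend in the prior spread (limma adjusted p = 0.0282). The share of all genes called under these alternatives is not given here.

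**Figure D4:**
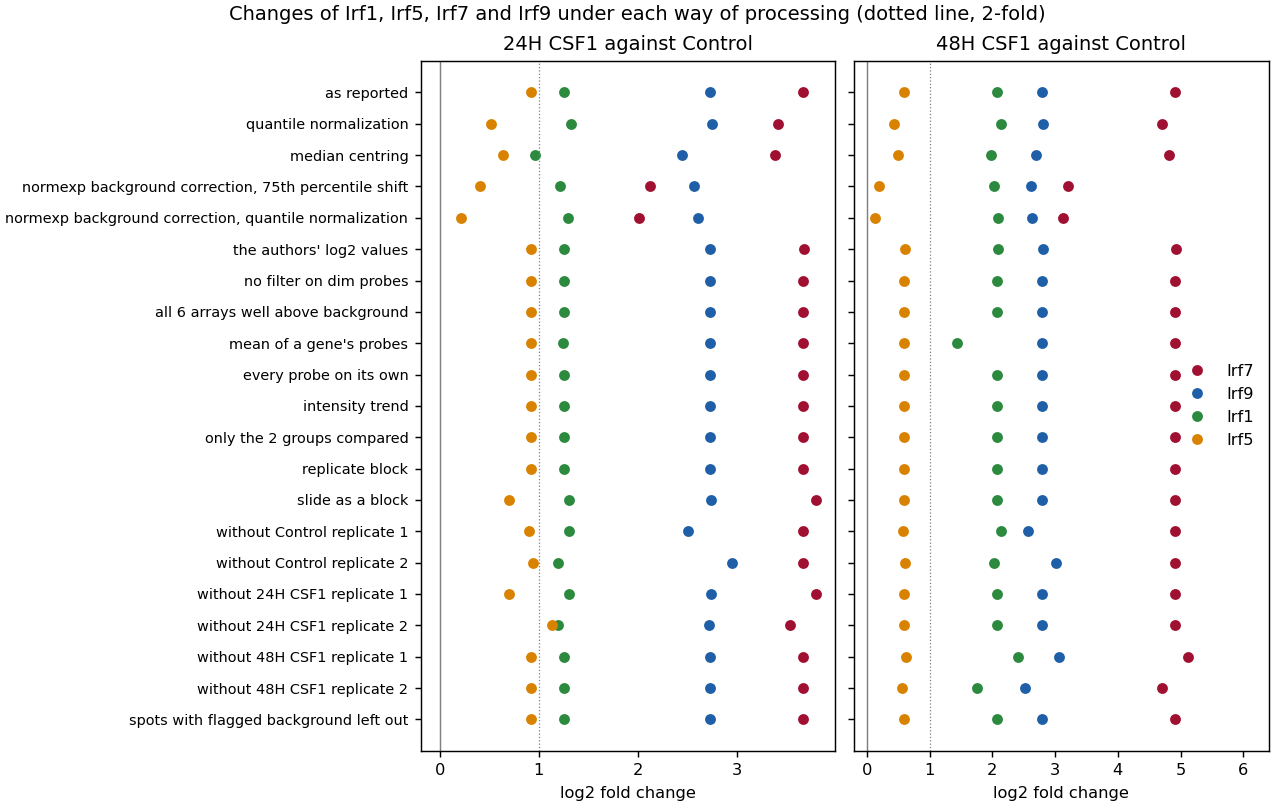
The log2 fold change of Irf1, Irf5, Irf7 and Irf9 at 24 h and 48 h against Control under alternative ways of processing, 1 per line, with a dotted line at 2-fold. The dimmer Irf1 probe tested on its own (0.80 at 48 h, below 2-fold) is not drawn. The study's thresholds and the methods' t-test, which leave the log2 fold change as it was, are not drawn either. Irf7 and Irf9 lie above 2-fold in every line; Irf7 is lowest with normexp background correction (2.02 at 24 h), and Irf5 lies above 2-fold only without 24H CSF1 replicate 2 (1.14).

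The pathway around the members was described with 8 lists. Of the 9 genes of interferon receptors and ISGF3 signalling, Stat2, the partner of Irf9, and Jak2, a kinase of the interferon gamma receptor, were called higher at both times. Stat2 was 2.77 and 3.54 above Control (limma adjusted p = 0.00235 and 0.00127) and Jak2 1.10 and 1.24 above (limma adjusted p = 0.0121 and 0.00921). The receptor subunit Ifngr1 was lower by less than 2-fold (-0.71 and -0.68, limma adjusted p = 0.0150 and 0.0172), and Ifnar1, Ifnar2, Ifngr2, Jak1 and Tyk2 did not pass the adjusted p. The median of the list was 0.47 at 24 h and 0.37 at 48 h, beside 0.04 and -0.04 over all genes tested. The Jak2 call at 24 h was lost without either Control array or 24H CSF1 array 2 (limma adjusted p between 0.054 and 0.065) and at 48 h without Control array 1 or 48H CSF1 array 2 (limma adjusted p = 0.059 and 0.051).

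Of 19 interferon genes, 15 were on the arrays and 11 were tested, mostly alpha interferons, whose near-identical sequences a probe may not tell apart. None of the 11 was called at either time (limma; lowest adjusted p 0.307 at 24 h and 0.192 at 48 h), and their median differences were 0.13 and 0.00; without 48H CSF1 array 2, 1 was called at 48 h. Ifnb1, the interferon gene that Irf3 and Irf7 activate, and Ifng stayed too dim to be tested. Interferon protein was not measured here.

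Of 26 tested sensors, adaptors and kinases upstream of Irf3, Irf5 and Irf7, 6 were called higher at both times and none lower, although 1 was called lower at 24 h under median centring or without Control array 1. Those called were Zbp1, a sensor of Z-form nucleic acid (3.86 and 4.77, limma adjusted p = 0.00414 and 0.00209), Dhx58, a regulator of the RNA sensors (3.34 and 4.21, limma adjusted p = 0.00386 and 0.00193), Rigi, such a sensor (3.11 and 3.36), Sting1 (1.76 and 1.48), Myd88 (1.41 and 1.08) and Tlr3, a receptor for double-stranded RNA. Tlr3 was not well above background in Control and was at least 3.12-fold and 7.19-fold higher (limma adjusted p = 0.0117 and 0.00540), and its 24 h call was lost without either Control array or either 24 h array (limma adjusted p between 0.059 and 0.066). The kinases that activate Irf3 and Irf7 were not called, with Tbk1 at -0.21 and -0.13 and Ikbke at 0.39 and 0.09. The list's median was 0.22 at the earlier time and 0.08 at the later.

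Among 10 cofactors and negative regulators, 2 were called higher at both times and none lower, namely Trim21, a ubiquitin ligase that acts on several of these factors (4.26 and 5.14, limma adjusted p = 0.00420 and 0.00224), and Socs1, a feedback inhibitor of Jak kinases (1.33 and 1.66, limma adjusted p = 0.0120 and 0.00702). Socs1 was not called at 24 h without either Control array or either 24 h array (limma adjusted p between 0.056 and 0.068), nor at 48 h without Control array 1 (limma adjusted p = 0.051). Irf2bp1 and Irf2bp2, corepressors that bind Irf2, differed by -0.42 and 0.25 at 24 h and did not pass. Of the 9 tested DNA-binding partners of Irf4 and Irf8, Batf2 (4.91 and 5.72, limma adjusted p = 0.00314 and 0.00190) and Junb (2.32 and 1.67, limma adjusted p = 0.00406 and 0.00861) were called higher, and Spi1, Spib and Ikzf1, the blood-cell partners, stayed too dim to be tested. Junb was not called at 48 h without either Control array (limma adjusted p = 0.053 and 0.058). The medians of both lists lay between 0.00 and 0.18 at either time.

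Of the 18 ISGF3 target genes, 14 were called higher at 24 h and 15 at 48 h, and none lower. Among them were Usp18, which removes Isg15 from proteins (6.66 and 8.04, limma adjusted p = 0.00292 and 0.00152), Ifit3, a partner of the viral RNA-binding Ifit1 (6.14 and 7.52, limma adjusted p = 0.00145 and 0.000928), and Oas1a, an oligoadenylate synthetase (5.56 and 7.64, limma adjusted p = 0.00682 and 0.00283). Ifit2 was called at 48 h only (1.94, after 0.10 at 24 h), although in the main fit no gene was called between the times (for Ifit2 1.84, limma adjusted p = 0.138). With normexp correction, 7 ISGF3 target genes were called at 48 h against 24 h after the 75th percentile shift and 8 after quantile normalization. With the intensity trend, 4 were called. Of the Irf1 target genes, 1, 3 and 1 were called in these fits, in that order. The share of all genes called in them is not given here. Adar, Isg20 and Mx2 were not called at either time, Mx2 with large values of 3.36 and 4.41 whose arrays scattered (limma adjusted p = 0.270 and 0.166). The list's median was 4.52 at 24 h and 6.23 at 48 h, or 3.92 and 5.36 with genes not above background in Control set at their lower bounds, beside 0.04 and -0.04 over all genes. With all 6 arrays required to be above background, which takes such genes out, 9 were called at 24 h.

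Of the 16 tested Irf1 target genes, 8 were called higher and 1 lower at 24 h, and 11 higher and 1 lower at 48 h. Among the increases were those of Gbp2 and Gbp3, interferon-induced guanylate-binding GTPases (5.43 and 6.89 for Gbp2, limma adjusted p = 0.00280 and 0.00138; 5.20 and 6.10 for Gbp3), and of Cxcl10, a chemokine for T cells (5.55 and 6.55, limma adjusted p = 0.00145 and 0.000928). Antigen presentation genes were among those called at both times, with the peptide transporter subunits Tap1 at least 3.24-fold and 5.34-fold and Tap2 at least 6.28-fold and 32.1-fold higher, the proteasome subunit Psmb9 at 3.23 and 4.66, and B2m at 1.19 and 2.06. Vcam1, an adhesion molecule, was lower (-2.02 and -1.34, limma adjusted p = 0.00986 and 0.0285). Nos2 and Cxcl11 were not called (-0.07 and -0.23 at 24 h). The median was 1.24 at 24 h and 2.36 at 48 h. The count of higher genes at 24 h fell to 5 without Control array 2 or without either 24 h array, that at 48 h to 7 without 48H CSF1 array 2, and Vcam1 was not called at 24 h without either Control array or 24H CSF1 array 1, nor at 48 h without any 1 array other than 48H CSF1 array 1.

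Of 5 tested target genes of Irf4 and Irf8, Bcl6, a repressor of B cell differentiation, was called lower at both times (-1.55 and -1.29, limma adjusted p = 0.00309 and 0.00427). Ctss, a lysosomal protease, was called higher at 48 h (at least 3.99-fold, limma adjusted p = 0.00740) and not at 24 h (0.78, limma adjusted p = 0.137). The median was 0.05 and 0.49.

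**Figure D5:**
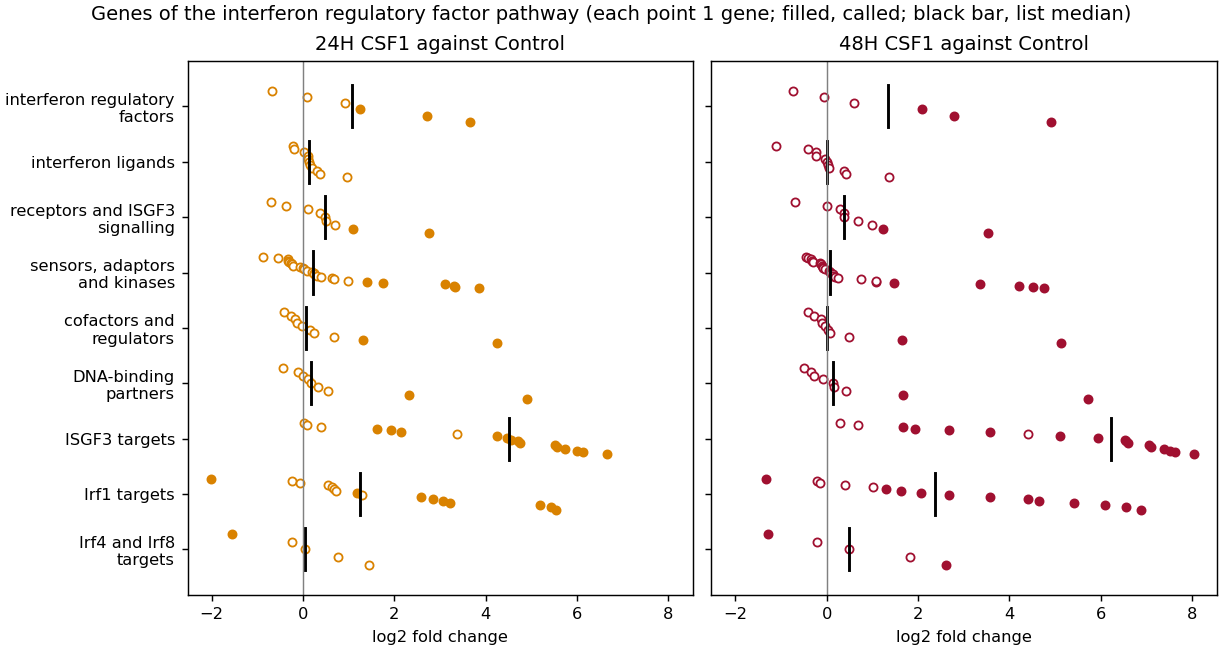
Log2 fold change at 24 h (left) and 48 h (right) against Control of each tested gene of the interferon regulatory factors and of 8 pathway lists, with filled points for called genes and a black bar at the list's median. The ISGF3 targets have medians of 4.52 and 6.23 and the Irf1 targets of 1.24 and 2.36, the interferon ligands have no filled point, and most sensors and cofactors lie near 0.

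For each called member, the 3 tested genes outside the family with the most similar pattern were found by the root mean square difference of the values over the 6 arrays, each gene centred on its own mean. This likeness is a description over 6 arrays that share a design. Nearest to Irf7 were Slfn2 (0.09), a Schlafen family gene, Ifi47 (0.13), an interferon gamma-inducible GTPase, and Plek (0.20), the protein kinase C substrate pleckstrin. Slfn2 was 3.81 and 4.97 above Control, beside 3.67 and 4.91 for Irf7. Nearest to Irf1 were Tapbpl (0.07), a tapasin-related chaperone of MHC class I, Gal3st2 (0.13), a sulfotransferase, and Mgst1 (0.14), a microsomal glutathione transferase. Nearest to Irf9 were Hmha1 (0.10), BC006779 (0.11) and Txk (0.15), a Tec family kinase, which were between 2.52 and 2.88 above Control at 24 h and between 2.76 and 2.84 at 48 h.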

How the data were processed

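Expression was measured on 6 single-color arrays (Agilent mouse, 60-base probes placed on mm9), 2 per group. The authors deposited the scanner output of Feature Extraction (11.0.1, per the submitters' processing notes): a background-subtracted, detrended signal intensity per spot, not normalized between arrays. They also deposited log2 values for part of the probes; over 44323 probes, 99.81% of their differences between arrays lay within 0.05 of those of the signals, apart from a constant per array. The medians of these columns lay between -0.04 and 0.17, and the baseline per probe is not given in the sources used here.

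Spots flagged as outliers were left out (303 probes lost every spot on some array), spots of a probe averaged, and log2 signal minus the array's 75th percentile taken. The brightest probe stood for a gene. Genes that every array of 1 or more groups showed well above background (24643) entered the test. It was made with limma 3.58.1 in R 4.3.3 (lmFit and eBayes, 2-sided, all arrays in 1 fit, Benjamini-Hochberg adjustment). The fit had 3 residual and 2.39 prior degrees of freedom. The procedure was also run on simulated normal values with limma's own spread, which cannot test that model. There, 35% (24 h) and 38% (48 h) of genes changed by 1 on the log2 scale passed the adjusted p. Of those changed by 2, 93% and 92% passed. For a probe not above background in 1 group, folds are lower bounds from the lowest signal above background per array. The number of arrays limits precision. Single genes of some lists are not reported here. Groups came from the labels, and names such as Rigi, Sting1 and Spi1 replace older ones in the files. Named were all 8 members, Csf1r and Csf1, per list the 3 genes with the largest mean change among those called at both times, and per called member the 3 nearest patterns; other genes in the text were chosen after their values were seen. Members and lists were chosen with earlier results of these data known. Alternatives covered normalization, background, filter, probes, test, blocks and left-out arrays; leaving out spots with flagged background was chosen after seeing the data.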

Additional observations from a re-analysis of the deposited data

Results flagged for a closer look

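The dimmer Irf1 probe (A_55_P2000067), which stood for no gene in the comparisons because the brighter probe was used, had a fitted difference from Control of 1.25 (log2) at 24 h. It was well above background on both 24 h arrays and on 0 of 2 Control arrays, a measurement outside the main one, so that the fitted value is not a measured fold and only a difference of at least 1.98-fold can be given, which did not pass correction (limma adjusted p = 0.0577). Its levels were -3.50 and -3.70 at 24 h, against -5.28 and -4.42 in Control.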

How the results depend on the processing

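The increases of Irf1, Irf7 and Irf9 against Control had the same direction under all alternatives run, 23 for Irf7 and Irf9 and 24 for Irf1, over ranges at 24 h and 48 h of 2.02 to 3.80 and 3.12 to 5.12 for Irf7, 2.44 to 2.95 and 2.51 to 3.06 for Irf9, and 0.97 to 1.32 and 0.80 to 2.40 for Irf1. Their adjusted p rose to at most 0.146 at 24 h (Irf9) and 0.176 at 48 h (Irf1), both under the methods' t-test. With the methods' t-test and Benjamini-Hochberg adjustment, 0 members were called at either time, as were 0 of all genes; at the study's own thresholds that test called 1352 genes at 24 h, 1161 at 48 h and 251 at 48 h against 24 h. Which members were called changed with single arrays left out, in fits that leave 1 array in a group. Without Control array 1, Irf2 was counted among them as lower (-1.66 at 24 h and -1.71 at 48 h). Without 24H CSF1 array 2, Irf5 was counted as higher at 24 h (1.14), and the losses of Irf1 are given above. At 48 h against 24 h, none was called in these fits. In that last comparison with all arrays kept, 1 member, Irf7, was called with normexp correction followed by either normalization and with the intensity trend. Irf7 also passed there at the study's thresholds, which use an unadjusted p, by limma and by the methods' t-test. The share of all genes called in these limma fits is not given here. With the replicate number as a block, 3 members were called at 24 h, 3 at 48 h and 0 at 48 h against 24 h, as without the block; the numbers were not taken to pair the arrays, since the deviations of same-numbered arrays correlated at 0.13, 0.09 and 0.20 and each had to exceed 0.1. At 24 h, Irf1 lost its call also under median centring (0.97), with no filter on dim probes (limma adjusted p = 0.0770) and with the slide as a block (limma adjusted p = 0.0968), a fit equal to leaving out 24H CSF1 array 1.

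Signs turned for small differences. The Irf2 differences were 0.29 and 0.24 without the spot whose background was marked or without Control array 2. They were -1.66 and -1.71 without Control array 1. Irf3 was -0.19 at 24 h under median centring, and at 48 h 0.027 under quantile normalization, 0.012 under normexp with quantile normalization and between -0.180 and 0.074 with 1 array left out. At 48 h against 24 h, Irf1 was -0.45 by its dimmer probe, Irf2 0.13 and Irf3 0.035 under median centring, and Irf9 between -0.21 and 0.33 with 1 array left out; BC006779 was 0.11 under median centring, and between -0.29 and 0.16 with 1 array left out; and Hmha1 was 0.14 under median centring, 0.037 with the slide as a block and between -0.22 and 0.14 with 1 array left out. Median centring also moved the median of all genes from 0.04 to -0.25 at 24 h and from -0.04 to -0.14 at 48 h. The causes were not tested. Low signals in Control limit the folds of Irf5 and Irf7, and in no group did both arrays measure Irf4 or Irf8 above background.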
